A study of Mus musculus with 16 samples.

Results

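The genes described here were the replication-dependent histone genes of the mouse, chosen as the genes of the deposited table whose symbol begins with Hist1h, Hist2h, Hist3h or Hist4h, without the 3 testis-specific genes Hist1h1t, Hist1h2aa and Hist1h2ba. This gave 46 of 13101 genes: 5 of the linker histone H1, 12 of H2A, 14 of H2B, 5 of H3 and 10 of H4. All 46 passed the filter of at least 1 FPKM in at least 2 libraries. FPKM counts the fragments of a gene relative to transcript length and to all mapped fragments. The study sequenced polyA-enriched total RNA of sorted testis cells from male C57BL/6J mice of 8 weeks, in 16 libraries from 4 cell types and 2 genotypes, with 2 libraries in each group. The cell types were spermatogonia, MI spermatocytes, MII spermatocytes and spermatids. One genotype was labelled WT, with no other allele named, and is called wild type. The other was Tex10f/-; Stra8iCre, with a floxed and a null Tex10 allele and a Cre recombinase under the Stra8 promoter. That promoter is active in differentiating spermatogonia. This genotype is called Tex10-deficient, and its cells were null at the floxed allele only where Cre had acted. The sources used here do not give how the cells were sorted or whether replicates were separate animals, and a p-value here therefore reflects only how far these samples vary, possibly for technical reasons.

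Replication-dependent histone genes encode the bulk of the histones that package newly copied DNA, and most cells transcribe them in S phase. Their genes lie in clusters, mostly lack introns, and give mRNAs that end in a conserved stem-loop, bound by the protein Slbp, in place of a poly(A) tail. In the testis, spermatogonia divide by mitosis, spermatocytes copy their DNA a last time before meiosis, and spermatids later exchange most histones for transition proteins and protamines. Because the libraries were enriched for polyA RNA, the values here are levels of histone RNA that passed that enrichment. What share of all histone mRNA this was could not be measured from these files.

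The stem-loop is shown because it is the feature that sets these transcripts apart. In the GENCODE M21 annotation of GRCm38, the assembly that mm10 names, all 46 genes were found by symbol: 38 on chromosome 13, 4 on chromosome 3, 3 on chromosome 11 and 1 on chromosome 6. One of them, Hist3h2bb-ps, is annotated as a processed pseudogene. The motif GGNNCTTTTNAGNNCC of 16 bases was searched on the sense strand after the coding end, and 31 members carried it. In the sequences below, given as DNA from 5′ to 3′, the capitals mark the loop of 4 bases and the flanking lower-case letters the stem:
17 members of H1, H2A, H2B and H3, among them Hist3h2a and Hist1h2bp: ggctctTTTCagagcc
5 members of H2B and H3, among them Hist1h3e and Hist1h2bb: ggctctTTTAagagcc
1 member, Hist2h2ac: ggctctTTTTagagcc
6 members, all H4, among them Hist1h4d and Hist1h4c: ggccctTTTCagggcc
2 members, both H4, Hist1h4b and Hist1h4j: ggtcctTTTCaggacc
The stems of the last pair of sequences were thus found in H4 genes alone among the 31. The search left only the last of the 4 loop bases free, so that no other variation of the loop could be found. Annotated transcripts ended within 60 bases of the stem-loop in 15 members and ran further past it in 15 others. Hist1h2bp had 1 transcript with the stem-loop and 1 without it. No stem-loop was found in the annotated transcripts of 14 members, 9 of which had models with no base after the coding end, such as the 393 bases of Hist1h2ai. The polyadenylation hexamer AATAAA was found after the coding end in at least 1 transcript of 13 of the 45 members with a coding transcript. A match is a description of the annotated letters and not evidence that the site is used.

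Starts of transcription carried the motifs known from histone promoters. RefSeq windows of 250 bases before to 50 bases after the start (GRCm38.p6) matched 41 members, with 42 windows. The members without a window were Hist1h2bc, Hist1h3a, Hist1h3f, Hist2h2be and Hist3h2bb-ps. Searched on both strands, with overlaps between motifs not considered, CCAAT was in 83.3% of the members' windows and in 37.4% of 32851 windows of all genes. All windows of H1, H2A, H2B and H3 members held it, against 3 of 10 for H4. TATAAA was in 59.5% of the members' windows and in 13.6% of all. The octamer ATTTGCAT was in 26.2% and 1.74% respectively, and was in 6 of 12 H2A and 5 of 12 H2B windows and in 0 of the H1, H3 and H4 windows. Among members with a window, in 5 places an H2A and an H2B gene started on opposite strands less than 500 bases apart. The windows of the partners overlapped in each place, so that the same match could count for both genes in the shares above. The bases between the starts of 2 such pairs on chromosome 13 are given because the partners of the second pair had different levels in spermatids, as described below. They are read on the plus strand of GRCm38.p6, with CCAAT and TATAAA matches on either strand in capitals:
Hist1h2bl (minus strand) to Hist1h2ai (plus strand), chr13:21716184-21716411: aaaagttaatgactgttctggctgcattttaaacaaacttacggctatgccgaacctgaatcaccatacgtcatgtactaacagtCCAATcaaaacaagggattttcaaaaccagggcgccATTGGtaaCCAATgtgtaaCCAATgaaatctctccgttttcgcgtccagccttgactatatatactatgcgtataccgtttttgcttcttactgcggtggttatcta
Hist1h2an (minus strand) to Hist1h2bp (plus strand), chr13:21787249-21787487: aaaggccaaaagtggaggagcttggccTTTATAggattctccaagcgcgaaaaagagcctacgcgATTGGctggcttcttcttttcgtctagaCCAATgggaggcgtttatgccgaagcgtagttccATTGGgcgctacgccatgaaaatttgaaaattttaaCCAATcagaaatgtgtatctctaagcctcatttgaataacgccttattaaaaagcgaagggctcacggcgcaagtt
Both held 4 matches to CCAAT in either orientation, and the second also held 1 match to TATAAA.

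Before the results, the libraries were checked against their labels. Tex10 itself was lower in both Tex10-deficient libraries than in both wild-type libraries of each cell type, with a log2 difference averaged over the 4 cell types of -1.68 (SE 0.15; limma, Benjamini-Hochberg adjusted p 0.000489). In FPKM it was at 55.4 and 50.02 in wild-type against 13.6 and 19.0 in Tex10-deficient spermatogonia, and 63.1 and 57.5 against 10.9 and 14.6 in MI spermatocytes. It was at 13.8 and 27.4 against 8.11 and 7.29 in MII spermatocytes, and at 98.8 and 116 against 31.8 and 34.8 in spermatids. Groups follow the sample titles. In 6 of the 8 samples with Tex10 loss, the field for cell type named a type other than the title. Ranked across genes, all 8 were closest to wild-type samples of their titled type, while the field matched for 2 of 8. Summed spermatogonia markers (6 genes in the table) were at 158 to 309 FPKM in the 4 libraries titled spermatogonia and at most 58.8 in the others. Among the 6, only Zbtb16 did not separate them. It was at 22.9 and 6.19 FPKM in Tex10-deficient spermatogonia and at 16.9 and 16.7 in Tex10-deficient MII spermatocytes. Summed spermatid markers (7 genes) were at 3870 to 10762 FPKM in the spermatid libraries and at most 619 elsewhere. Summed spermatocyte markers (7 genes) were at 1622 to 2720 FPKM in MI libraries and at 2701 to 3600 in spermatid libraries, but at 74.7 to 526 in MII and 156 to 323 in spermatogonia libraries, so that they marked neither MI alone nor the MII fraction. MII libraries also held RNA of somatic testis cells. The 5 Leydig cell markers summed to 741 to 1213 FPKM there and to 12.3 to 177 in the other 12 libraries. The 6 immune cell markers summed to 196 to 469 FPKM in MII, 179 to 440 in spermatogonia and 1.88 to 17.1 in MI and spermatid libraries. Of 3 T lymphocyte markers, Cd3g and Ifng were listed at 0 in all MII libraries, whereas the 3 summed to 15.3 to 59.4 FPKM in spermatogonia. Of 5 Sertoli cell markers, 2 were in the table and summed to 66.8 to 109 FPKM in MII and 4.19 to 51.6 in the others. Of 4 myoid and endothelial markers, 3 were in the table, and they summed to 69.5 to 121 FPKM in MII, 32.4 to 69.7 in spermatogonia and at most 8.25 in MI and spermatid libraries.

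Replicates differed most in Tex10-deficient MII spermatocytes and in MI spermatocytes of both genotypes. The summed level of the 46 members was 2227 FPKM in replicate 1 and 682 FPKM in replicate 2 of Tex10-deficient MII spermatocytes, and 41 of the 46 genes were higher in the first. In MI spermatocytes, replicate 1 was 1.85 times replicate 2 in wild-type cells, with 39 members higher, and 1.94 times with Tex10 loss, with 38 members higher. Summed over 34 genes of DNA replication, the ratio of replicates was 1.12 in wild-type MI, 1.22 in Tex10-deficient MI and 1.01 in Tex10-deficient MII spermatocytes. In spermatogonia, the ratio over the histone genes was 1.05 for wild-type and 0.944 for Tex10-deficient libraries. It was 1.23 in wild-type MII spermatocytes, 0.804 in wild-type spermatids and 0.652 in Tex10-deficient spermatids.

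Histone RNA was highest in spermatogonia and fell to a trace in spermatids. In the wild type the members summed to 5983 ± 219 FPKM (SD, n = 2, as in all groups) in spermatogonia, 756 ± 319 in MI spermatocytes, 921 ± 134 in MII spermatocytes and 108 ± 16.6 in spermatids. The mean sum in spermatids was 55.6 times lower than in spermatogonia, and that in MI spermatocytes 7.92 times lower. As a share of all FPKM in the library, the members made up 2.92% to 3.38% in the 4 spermatogonia libraries, 0.175% to 0.437% in MI, 0.243% to 0.833% in MII and 0.0187% to 0.0384% in spermatids. Of the 46 members, 40 had their highest wild-type mean in spermatogonia, 2 in MI and 4 in MII spermatocytes, and none in spermatids. In a bulk sample, fewer cells that hold an RNA and less of it in each cell cannot be told apart. The heat map of single libraries shows the fall across nearly all members of each class.

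**Figure D1:**
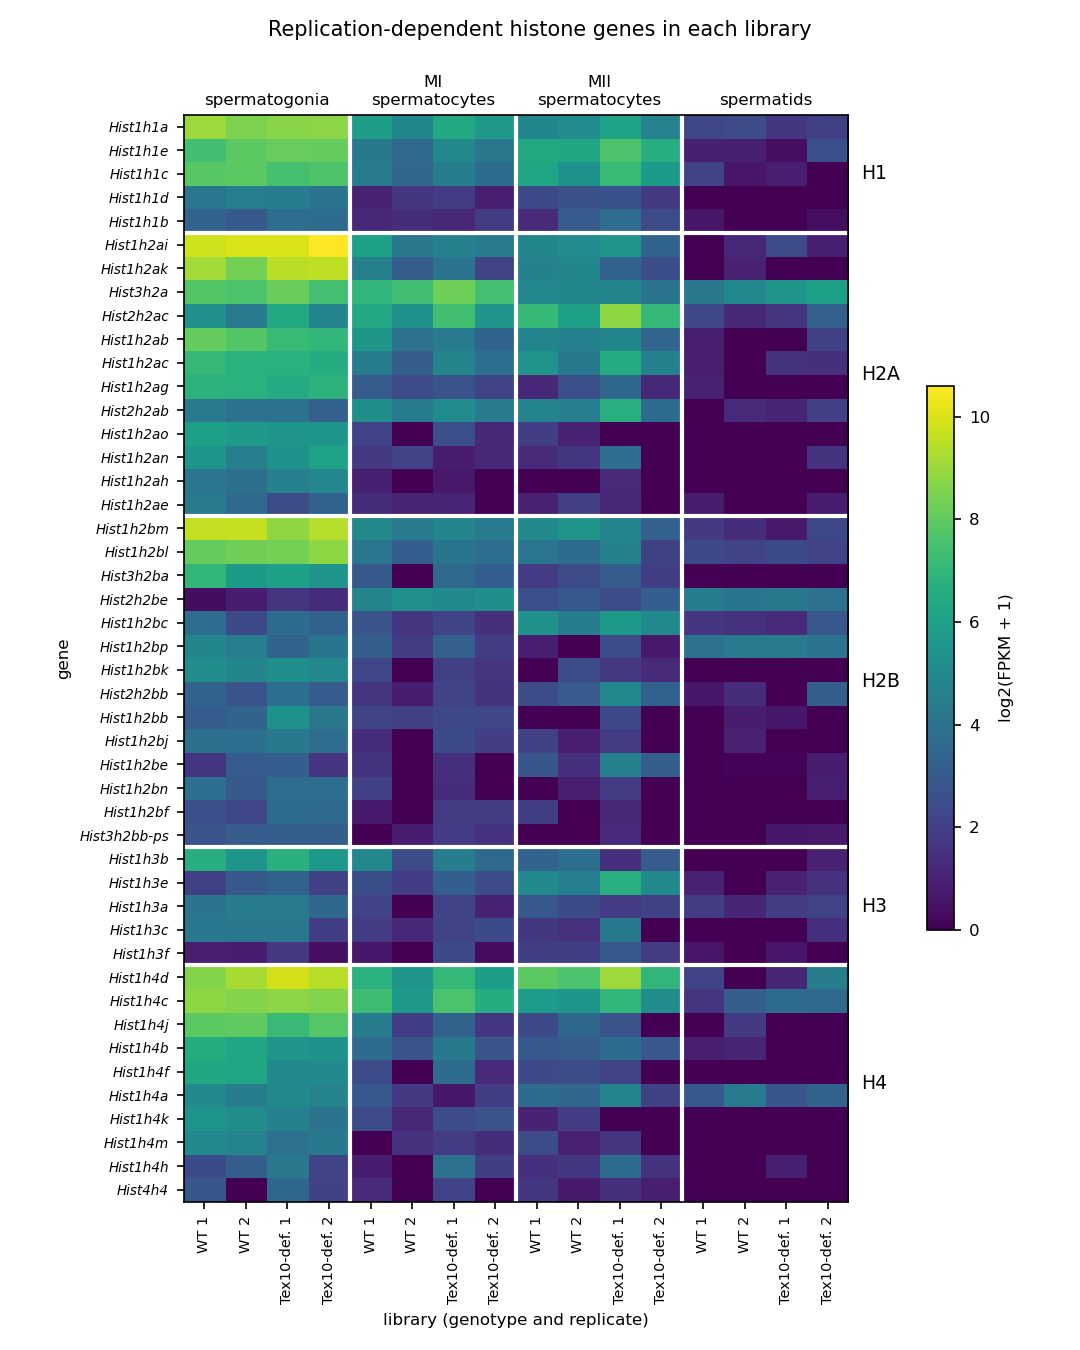
Heat map of log2(FPKM + 1) for the 46 replication-dependent histone genes (rows, grouped by class and ordered by mean level) in the 16 libraries (columns, by cell type, genotype and replicate). Most rows are brightest in the 4 spermatogonia columns and at or near 0 in the 4 spermatid columns, where 10 members are listed at 0 throughout.

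The 5 classes followed this order with different depths. In wild-type libraries, H1 genes summed to 942 and 877 FPKM in spermatogonia, 99.1 and 54.0 in MI, 191 and 168 in MII and 8.93 and 5.97 in spermatids, so that all 4 cell types were apart and MII lay above MI. H2A was the largest class in spermatogonia at 2387 and 2106 FPKM and reached 24.9 and 34.6 in spermatids. H2B genes summed to 1311 and 1287 FPKM in spermatogonia and held the highest level in wild-type spermatids, 45.1 and 45.6. H3 was the smallest class, with 134 and 90.04 FPKM in spermatogonia and 4.05 and 1.19 in spermatids, and H4 ran from 1364 and 1469 to 13.0 and 32.1. H2B therefore made up 16.3% to 22.1% of the members' sum in the 4 spermatogonia libraries, 8.35% to 15.0% in the 8 MI and MII libraries and 27.4% to 47.0% in the 4 spermatid libraries. These ranges do not overlap. A handful of genes gave most of the RNA. In wild-type spermatogonia, Hist1h2ai alone made up 16.04% of the sum, and with Hist1h2bm, Hist1h4d, Hist1h2ak and Hist1h1a 52.4%. In wild-type spermatids, 5 others made up 72.1%: Hist3h2a, Hist2h2be, Hist1h2bp, Hist1h4a and Hist1h4c.

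**Figure D2:**
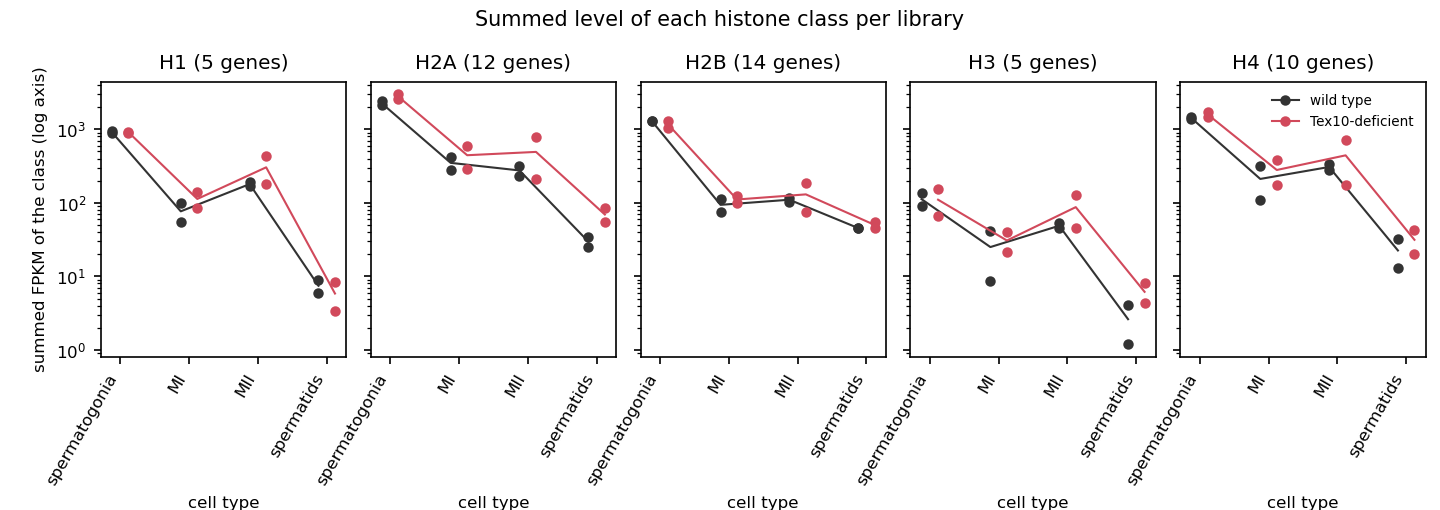
Summed FPKM of each histone class (log axis) in each library, by cell type, with a point for each library, lines joining the means of 2 libraries, wild type in black and Tex10-deficient in red. Each class is highest in spermatogonia and lowest in spermatids, and 1 Tex10-deficient MII library stands above the others of its cell type. In spermatids H2A is at 54.5 and 84.2 FPKM in Tex10-deficient against 24.9 and 34.6 in wild-type libraries. Of these sums Hist3h2a alone gives 44.9 and 64.2 against 17.6 and 29.4 FPKM, and no member was called between genotypes.

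From spermatogonia to MI spermatocytes in the wild type, 35 members fell and 1 rose at an adjusted p under 0.05 (limma on log2(FPKM + 1), adjusted over 13099 genes). Over all genes tested, 51.9% were called: 25.7% fell and 26.3% rose. The median log2 change of the members was -2.89, against -0.07 for all genes. Because 1 was added before the logarithm, these values are too small for genes at low levels. Both MI libraries were below both spermatogonia libraries for 40 members, and above for 3, against 41% and 39.1% of all genes. The fall took in all 5 H1 genes, 9 of 12 H2A, 9 of 14 H2B, 3 of 5 H3 and 9 of 10 H4 genes. Between these fractions 6 of 6 immune, 3 of 3 T lymphocyte and 2 of 3 myoid and endothelial markers also fell, at the summed levels given above, and their part in the fall of the histone genes was not tested.

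Hist1h2ai, an H2A gene and the member with the highest level, was at 904 and 1016 FPKM in wild-type spermatogonia and at 63.9 and 17.8 in MI spermatocytes, a log2 change of -4.78 (SE 0.69, adjusted p 7.62e-05). The H2A gene Hist1h2ak went from 557 and 335 FPKM to 23.2 and 7.73, a change of -4.90 (SE 0.58, adjusted p 1.58e-05). Hist1h2ao, also an H2A gene, went from 61.5 and 51.6 FPKM to 3.44 in one MI library and was listed at 0 in the other. In each of these genes the MI values lay far below both spermatogonia values. Among H2B genes, Hist1h2bm was at 779 and 813 FPKM and then at 30.9 and 18.8, a log2 change of -4.99 (SE 0.50, adjusted p 4.19e-06). Hist3h2ba, on chromosome 11, was at 127 and 54.2 FPKM and then at 7.11 and listed at 0. The highest H2B gene after Hist1h2bm was Hist1h2bl, with 272.1 and 312 FPKM in spermatogonia and only 16.8 and 8.01 in MI (log2 change -4.53, SE 0.58, adjusted p 3.005e-05). Hist1h4f had the lowest fitted log2 change of all members, -5.04 (SE 0.82, adjusted p 0.000203), from 77.8 and 73.0 FPKM to 4.43 and listed at 0.

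The 2 H4 genes with the highest levels had smaller log2 changes. Hist1h4d was at 396 and 583 FPKM in spermatogonia and at 107 and 43.3 in MI spermatocytes, a log2 change of -2.80 (SE 0.95, adjusted p 0.0241). Hist1h4c was at 441 and 392 FPKM and then at 155 and 51.7, a change of -2.20 (SE 0.62, adjusted p 0.00893). Linker histone genes fell by 1.88 to 3.93 on the log2 scale. Hist1h1a, which encodes the H1 subtype H1.1, was at 523 and 366 FPKM and then at 58.2 and 28.1. Hist1h1e, which encodes H1.4, went from 166 and 242 FPKM to 18.4 and 11.8. In H3, Hist1h3b went from 96.6 and 43.9 FPKM to 30.0 and 4.38, and both MI values lay below both spermatogonia values (log2 change -2.36, SE 0.73, adjusted p 0.0148).

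In the cluster on chromosome 3, 3 of 4 members did not share the fall. The 3 members with a positive log2 change from spermatogonia to MI spermatocytes were all among its 4 members: Hist2h2be, Hist2h2ac and Hist2h2ab. Their position was noticed after the values were seen. They lie beside each other, with Hist2h2ab at chr3:96219865-96220308, Hist2h2ac on the opposite strand at chr3:96220361-96220880 and Hist2h2be at chr3:96221119-96223738 (GRCm38). Hist2h2be, an H2B gene, was the 1 member that rose. In the wild type it was at 0.283 and 0.754 FPKM in spermatogonia, 27.1 and 39.1 in MI, 5.03 and 6.64 in MII and 21.3 and 16.3 in spermatids. Its change from spermatogonia to MI was 4.48 on the log2 scale (SE 0.33, adjusted p 1.18e-06), its change from MI to MII -2.31 (SE 0.33, adjusted p 7.39e-05) and its change from MII to spermatids 1.53 (SE 0.33, adjusted p 0.000782). Tex10-deficient libraries had the same order, with 2.03 and 1.53 FPKM in spermatogonia, 32.4 and 38.1 in MI, 4.34 and 7.96 in MII and 18.5 and 14.4 in spermatids. Its single annotated transcript has 2620 bases with AATAAA and no stem-loop. The H2A gene Hist2h2ac, which starts on the opposite strand next to it and does carry a stem-loop, was at 39.5 and 18.9 FPKM in wild-type spermatogonia, 83.4 and 42.9 in MI, 134 and 63.8 in MII and 3.85 and 1.33 in spermatids. Hist2h2ab was at 19.6 and 14.7, 37.4 and 21.1, 26.8 and 22.0, and 0 and 1.46 FPKM across the same cell types. Both MI values of these 2 H2A genes lay above both spermatogonia values, but neither change passed the test. The fourth gene of the cluster, Hist2h2bb, was lower in both MI libraries, going from 9.35 and 5.82 to 2.04 and 0.736 FPKM, but did not pass the test (adjusted p 0.0631).

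**Figure D3:**
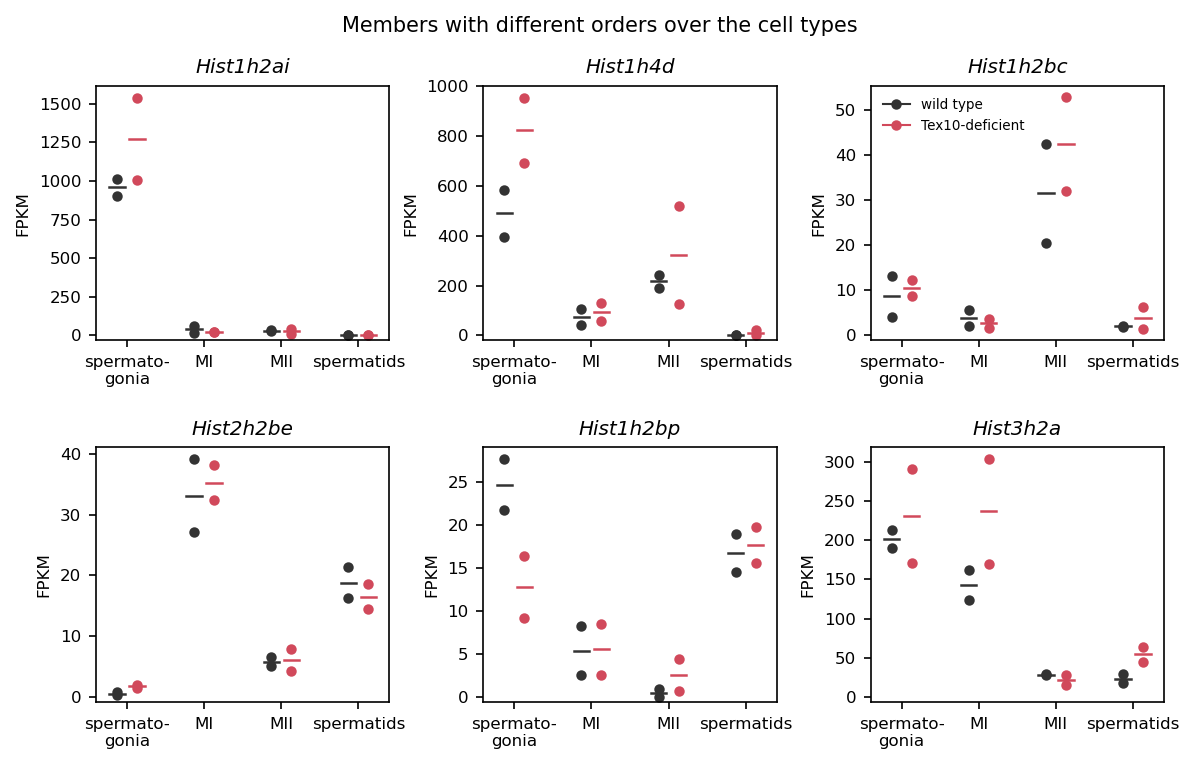
FPKM (linear axes) of 6 members in each library, by cell type, with a point for each library, a bar for the mean of 2, wild type in black and Tex10-deficient in red. Hist1h2ai and Hist1h4d are highest in spermatogonia, Hist1h2bc in MII spermatocytes and Hist2h2be in MI spermatocytes, while Hist1h2bp has a low level in MII and a higher level again in spermatids.

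From MI to MII spermatocytes, 7 members rose and 4 fell, against 30% and 27.2% of all genes (57.2% in either direction). The median log2 change was 0.52, against 0.05 for all genes, with 28 estimates higher and 18 lower. Its direction rested on 1 library: without MI replicate 2 the median was -0.03, with 21 higher and 24 lower, and without MI replicate 1 it was 0.98, with 38 and 7. This comparison shares the MI libraries with the one before. The members that rose were in H1 (3 of 5), H3 (3 of 5) and H2B (1 of 14). Hist1h2bc, an H2B gene, was at 5.54 and 2.13 FPKM in MI and 42.6 and 20.5 in MII spermatocytes, a log2 change of 2.76 (SE 0.59, adjusted p 0.00128), and at 13.2 and 4.18 FPKM in spermatogonia. The H3 gene Hist1h3e went from 4.88 and 2.84 to 32.0 and 22.8 FPKM (2.56, SE 0.57, adjusted p 0.00177). Hist1h1e rose from 18.4 and 11.8 to 84.4 and 78.4 FPKM (2.39, SE 0.55, adjusted p 0.00224), and Hist1h1c, which encodes H1.2, from 20.1 and 10.3 to 73.6 and 42.2 FPKM (1.88, SE 0.55, adjusted p 0.00971). The low H3 genes Hist1h3f and Hist1h3a rose as well, the former from 0.623 and 0 to 2.86 and 2.93 FPKM and the latter from 3.35 and 0 to 6.29 and 4.19 FPKM. For all of these genes both MII values lay above both MI values. The members that fell were Hist2h2be, Hist3h2a, Hist1h2bb and Hist1h2bp, and their highest MII level was 29.0 FPKM. Hist1h1c lost its call when either MI replicate 2 or MII replicate 1 of the wild type was left out (adjusted p 0.102 and 0.0845). Leaving out a wild-type MI or MII replicate also ended the calls of Hist1h3f (adjusted p up to 0.188), Hist1h2bp (up to 0.119) and Hist1h3a, whose log2 change without MI replicate 2 was 0.50 (adjusted p 0.463). After quantile normalization the members called were 4 higher and 5 lower. All 5 Leydig, 2 Sertoli and 6 immune cell markers rose in the same comparison, at the summed levels given above, and their part in the rise of these histone genes was not tested.

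From MII spermatocytes to spermatids, 26 members fell and 2 rose, against 35% and 38.8% of all genes (73.8% in either direction), and the median log2 change was -1.72 against 0.11. Compared with MI spermatocytes, 20 were lower and 1 higher, against 19.8% and 22.6% (42.3% in either direction), with medians of -1.47 and -0.01. In a list with so many low values the fitted change depends on the 1 added before the logarithm, and 16 members were listed at 0 in both wild-type spermatid libraries. Hist1h4d, at 243 and 191 FPKM in MII spermatocytes, was at 3.46 FPKM in one spermatid library and listed at 0 in the other (log2 change -6.68, SE 0.95, adjusted p 2.89e-05). Hist1h1e went from 84.4 and 78.4 to 0.932 and 0.880 FPKM, and Hist1h1c from 73.6 and 42.2 to 3.48 and 0.542. Hist2h2ac fell from 134 and 63.8 to 3.85 and 1.33 FPKM, and the H2A gene Hist1h2ac from 44.0 and 18.6 to 0.869 and listed at 0. Hist1h2ai was listed at 0 in one spermatid library and at 1.34 FPKM in the other. Against MI spermatocytes, the H2A gene Hist1h2ab fell from 47.1 and 14.6 FPKM to 0.845 and listed at 0, and Hist2h2ab and Hist1h4c fell too. All 5 Leydig and 6 immune cell markers also fell from MII spermatocytes to spermatids, and their part was not tested. Between MI spermatocytes and spermatids, 0 of the 5 Leydig and 0 of the 6 immune markers were called, but 6 of 6 spermatogonia markers fell (median log2 change -2.36), as did 1 of 3 myoid and endothelial markers and 4 of 7 spermatocyte markers. The spermatocyte markers Ldhc, Ccna1 and Spag6 were higher in both wild-type spermatid libraries than in both MI libraries. The summed spermatocyte markers were at 2085.5 and 1742 FPKM in wild-type MI and at 3495 and 3035 in spermatid libraries. The part of these markers in the histone values was not tested.

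A small set of members kept a level in spermatids. In the 4 spermatid libraries, 4 members were at 5 FPKM or more throughout: Hist3h2a at 17.6 to 64.2 FPKM, Hist1h2bp at 14.5 to 19.8, Hist2h2be at 14.4 to 21.3 and Hist1h4a at 6.15 to 20.1. Hist1h4c, at 2.11 to 12.1 FPKM, reached 5 FPKM in 3 of the 4 libraries and has no annotated AATAAA. Below it came Hist1h2bl at 3.33 to 4.22 FPKM and Hist1h1a at 2.26 to 4.54, and 10 members were listed at 0 in all 4. The set and its threshold were chosen after these values were seen. All 4 have AATAAA after the coding end in an annotated transcript, as do 9 of the other 41 members with a coding transcript. The comparison depends on the length of the models. Those of the 4 ran up to 150 to 2192 bases past the coding end, while models with no base after it, as in 9 members, could not hold AATAAA. Hist1h2bp, an H2B gene, was at 27.7 and 21.8 FPKM in wild-type spermatogonia, 8.28 and 2.55 in MI, 0.878 and 0 in MII and 14.5 and 19.0 in spermatids. Its rise from MII to spermatids was 3.68 on the log2 scale (SE 0.61, adjusted p 9.19e-05). The difference from MI, 1.62 (SE 0.61, adjusted p 0.0453), did not pass with a pseudocount of 0.1 (adjusted p 0.168) or after quantile normalization (adjusted p 0.194), and was 0.92 without wild-type MI replicate 2 (adjusted p 0.328). Its divergent partner Hist1h2an, across the 239 bases given above, was at 47.0 and 21.9 FPKM in spermatogonia, 2.36 and 3.38 in MI and 1.49 and 2.25 in MII, and was listed at 0 in both wild-type spermatid libraries. In the pair Hist1h2bl and Hist1h2ai, neither gene passed 4.39 FPKM in any spermatid library. In Tex10-deficient libraries Hist1h2bp was at 9.25 and 16.4 FPKM in spermatogonia, 8.52 and 2.59 in MI, 4.47 and 0.667 in MII and 19.8 and 15.6 in spermatids, which again lay above both MII values. The H2A gene Hist3h2a stayed high in MI spermatocytes, at 124 and 162 FPKM after 213 and 191 in spermatogonia, and dropped to 29.0 and 28.2 in MII (log2 change -2.27, SE 0.39, adjusted p 0.000262). It was at 17.6 and 29.4 FPKM in wild-type spermatids. Its annotated transcript runs 1643 bases past the stem-loop. Hist1h4a was at 6.55 and 20.1 FPKM in wild-type spermatids, a range that took in both MII values, 11.9 and 10.2.

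Genes that work with these histones did not all move in 1 direction. Over all genes tested, 26.3% rose and 25.7% fell from spermatogonia to MI spermatocytes, and 30% and 27.2% from MI to MII. These shares were 38.8% and 35% from MII to spermatids, and 22.6% and 19.8% from MI to spermatids. They apply to the list counts in the following paragraphs too, and a count near them is not a property of a list. The list of DNA replication genes held 34, all tested, and 23 fell and 1 rose from spermatogonia to MI spermatocytes, with a median log2 change of -1.49. Lig1, the replicative DNA ligase, went from 80.3 and 97.2 to 27.9 and 26.9 FPKM. Pcna, the sliding clamp of the polymerases, was at 159 and 184 and then at 166 and 152 FPKM (adjusted p 0.738), and Mcm7, a helicase subunit, at 42.0 and 31.2 and then at 33.1 and 36.8. Gins1, of the same helicase complex, was the gene that rose, from 27.4 and 26.5 to 63.4 and 67.2 FPKM. From MII spermatocytes to spermatids, 10 of these genes rose and 9 fell, with Pcna at 57.4 and 61.4 and then 173 and 171 FPKM. From MI spermatocytes to spermatids 2 rose and 15 fell. The median level of the list was 20.5 and 21.0 FPKM in wild-type spermatogonia and 2.38 and 2.16 in spermatids, so that Pcna was not typical of it.

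Factors of histone mRNA 3′ end processing had median levels of 9.04 to 20.3 FPKM in the 8 wild-type libraries, but some were near the floor. Zfp473 was at 0.197 and 0.377 FPKM in wild-type MII spermatocytes. Lsm10 was listed at 0 in one wild-type spermatid library and at 2.34 FPKM in the other. Of 17 listed genes 16 were tested, and 7 rose and 5 fell from spermatogonia to MI spermatocytes, 0 rose and 9 fell from MI to MII, and 6 rose and 3 fell from MII to spermatids. Slbp, the stem-loop binding protein, was at 100.8 and 106 FPKM in wild-type spermatogonia, 187 and 146 in MI, 28.0 and 54.5 in MII and 157 and 175 in spermatids. Its fall into MII and its rise into spermatids passed the test (log2 change -2.05 and 2.06, SE 0.33 each, adjusted p 0.000165 and 6.97e-05). Coil, the marker protein of Cajal bodies, was highest in spermatids, with 5.81 and 7.85, 39.0 and 42.6, 4.93 and 19.6, and 119.7 and 107 FPKM from spermatogonia to spermatids. Ncbp1, the large subunit of the cap-binding complex, rose from 21.0 and 17.3 to 62.2 and 82.0 FPKM in MI and was at 139 and 143 in spermatids. Cpsf3, the endonuclease that cuts histone pre-mRNA, stayed between 19.6 and 44.8 FPKM in the 8 wild-type libraries, and its changes did not pass the test.

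Among 15 histone chaperones of replication, 1 rose and 3 fell from spermatogonia to MI, 1 rose and 7 fell from MI to MII, and 6 rose and 3 fell from MII to spermatids. Nasp, a chaperone of H1 and of H3 with H4, was at 148 and 208 FPKM in spermatogonia, 593 and 823 in MI, 62.1 and 219 in MII and 951 and 1094 in spermatids. Rbbp7, which binds H4, was highest in MII, with 493 and 363 FPKM there and 3.30 and 3.37 in spermatids. Most replacement histones can be made outside S phase from polyadenylated mRNA. Of the 11 listed, 2 rose and 2 fell from spermatogonia to MI. H2afz, which encodes H2A.Z, was at 273 and 318 FPKM in spermatogonia and 945 and 841 in MI (a log2 change of 1.595, SE 0.33, adjusted p 0.00135), the opposite direction to most H2A members. H3f3a, which encodes H3.3, was at 86.1 and 89.7 FPKM in spermatogonia and at 214 and 242 in spermatids, where the 5 replication-dependent H3 genes of the wild type summed to at most 4.05. H3f3b, which encodes the same protein, went from 81.0 and 59.2 FPKM in MII to 21.9 and 23.9 in spermatids, and H2afx fell from 143 and 75.7 in MI to 25.4 and 17.2 FPKM in MII spermatocytes.

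**Figure D4:**
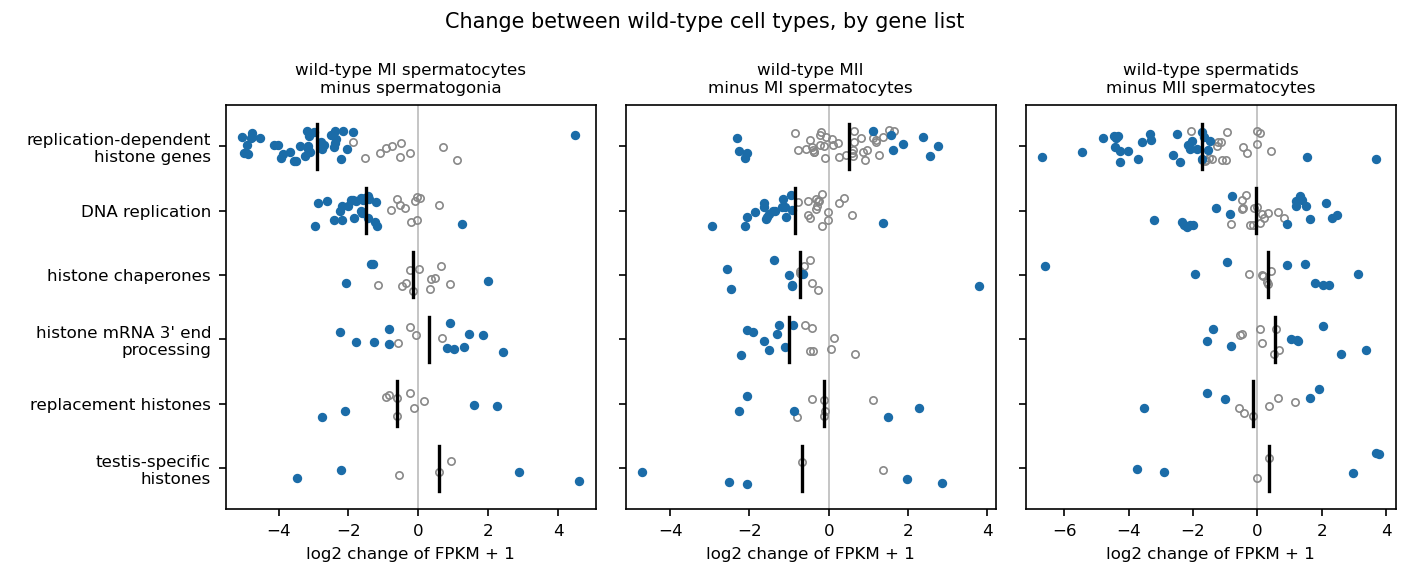
Log2 change between successive wild-type cell types (columns) for the replication-dependent histone genes and 5 other gene lists (rows), with a point for each gene, filled blue at an adjusted p under 0.05 and open grey otherwise, and a black bar for the median. The histone genes have a median of -2.89 from spermatogonia to MI spermatocytes, beside -1.49 for DNA replication genes.

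Of the 3 testis-specific genes left out of the set, Hist1h2aa and Hist1h2ba were also highest in wild-type spermatogonia and lowest in spermatids. Hist1h1t was highest in MI spermatocytes. Hist1h2aa, the testis H2A gene, was at 10547 and 11318 FPKM in wild-type spermatogonia, more than all 46 members together, then at 1394 and 683 in MI, 162 and 338 in MII and 13.7 and 20.3 in spermatids. Hist1h2ba, its H2B counterpart, was at 80.3 and 47.5, 59.4 and 29.2, and 7.24 and 5.69 FPKM, and was listed at 0 in both wild-type spermatid libraries. Hist1h1t, the testis linker histone of spermatocytes, was at 6.08 and 6.79 FPKM in spermatogonia and 159 and 203 in MI spermatocytes, then at 5.54 and 6.39 in MII and 5.75 and 6.11 in spermatids. Its rise into MI, 4.60 on the log2 scale (SE 0.36, adjusted p 1.33e-06), ran against the fall of all 5 H1 members. In spermatids the later linker histone genes Hils1 and H1fnt were at 550.7 and 380.7 and at 423 and 248 FPKM, while the 5 H1 members summed to 8.93 and 5.97.

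Loss of Tex10 changed none of the 46 members past the threshold. With limma, 0 members were called in spermatogonia, MI spermatocytes, MII spermatocytes and spermatids, in the average over the 4 cell types, and in the F test of whether the difference varied between cell types. Over all genes, 0.0153%, 0.168% (0.0534% higher and 0.115% lower), 0.00763% and 0% were called in the 4 cell types, 0.0992% in the average (0.0382% higher and 0.0611% lower) and 0% in the F test, so that a count of 0 among 46 lies near the background. The counts at an unadjusted p under 0.05 were 5, 5, 5 and 2 in the cell types, 6 in the average and 2 in the F test. The share of all genes at that threshold is not given here, so no effect is read from these counts. The smallest adjusted p of any member was 0.606 in spermatogonia, 0.419 in MI, 0.105 in MII and 1 in spermatids. With 2 libraries a group and the replicate spread given above, the differences given next were not told apart from replicate error.

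The summed level was 6350 and 6729 FPKM in Tex10-deficient against 6138 and 5828 in wild-type spermatogonia, a ratio of means of 1.09. It was 1289 and 665 against 981 and 530 FPKM in MI, and 2227 and 682 against 1015 and 826 in MII spermatocytes, so that the groups overlapped in both. In spermatids it was 128 and 197 against 95.9 and 119 FPKM. The spermatid library with the sum of 197 FPKM also had Leydig markers at 177, Sertoli markers at 51.6 and spermatogonia markers at 8.11 FPKM, against at most 61.6, 14.7 and 2.02 in the other 3 spermatid libraries. In spermatogonia 2 of 3 T lymphocyte markers were called higher in Tex10-deficient cells, and they were the only 2 of 13099 genes called there. In MII, 7 of 7 spermatocyte markers had lower estimates, with a median log2 difference of -1.51 and 0 called (smallest adjusted p 0.0743). The part of these differences in the histone values was not tested. With all libraries, 26 estimates were higher and 20 lower in spermatogonia, 32 and 14 in MI, 27 and 19 in MII, and 22 and 14 in spermatids, where 10 members were at 0 in both genotypes. A single library turned each of these counts. They were 17 and 29 in spermatogonia without Tex10-deficient replicate 1 and 21 and 25 without wild-type replicate 2. In MI they were 20 and 26 without wild-type replicate 2 and 22 and 24 without Tex10-deficient replicate 1. They were 10 and 33 in MII without Tex10-deficient replicate 1, and 15 and 17 in spermatids without Tex10-deficient replicate 2. The median log2 differences were 0.14, 0.36, 0.33 and 0, against -0.01, -0.003, -0.02 and -0.02 for all genes. Without Tex10-deficient replicate 1 the median was -0.12 in spermatogonia, -0.04 in MI and -0.51 in MII, without wild-type replicate 2 it was -0.05 in spermatogonia and -0.20 in MI, and no direction is read from these medians. In the average over cell types, 31 were higher and 15 lower with a median of 0.21, but 24 and 22 both without wild-type MI replicate 2 (median 0.02) and without Tex10-deficient MII replicate 1 (median 0.03). Both Tex10-deficient libraries lay above both wild-type libraries for 10 members and below for 13 in spermatogonia, against 16.9% and 19.6% of all genes. These counts were 8 and 1 in MI (15.7% of all genes and 18.4%), 4 and 8 in MII (17.3% and 18%) and 6 and 2 in spermatids (11.7% and 15.9%).

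The smallest p for the average difference belonged to Hist3h2bb-ps, the annotated pseudogene, with a log2 difference of 0.73 (SE 0.19, adjusted p 0.162). It was at 5.48 and 7.504 FPKM in wild-type and 8.14 and 8.18 in Tex10-deficient spermatogonia, and at 0 and 0.750 against 2.63 and 1.87 in MI spermatocytes. The H4 gene Hist1h4h followed, at 1.11 (SE 0.39, adjusted p 0.311). Hist1h4h was at 4.21 and 8.18 against 17.7 and 3.46 FPKM in spermatogonia and at 0.758 and 0 against 15.0 and 2.86 in MI, and in spermatogonia the wild-type values lay between the 2 Tex10-deficient values. Hist1h2ae, an H2A gene, had an average log2 difference of -0.69 (SE 0.27, adjusted p 0.364), with 4.36 and 8.77 against 19.4 and 11.7 FPKM in spermatogonia. Hist1h2bb had a log2 difference of 1.61 in spermatogonia (SE 0.60, adjusted p 0.606), from 7.42 and 9.29 to 42.8 and 17.4 FPKM, and an average of 0.72 (SE 0.30, adjusted p 0.401). Hist1h3e averaged 0.65 (SE 0.28, adjusted p 0.429). It was at 99.6 and 32.1 against 32.0 and 22.8 FPKM in MII spermatocytes. Hist3h2a, the highest member in spermatids, was at 44.9 and 64.2 FPKM there against 17.6 and 29.4 in the wild type, and these groups did not overlap (log2 difference 1.201, SE 0.39, adjusted p 1). The most abundant member, Hist1h2ai, was at 1004 and 1540 against 904 and 1016 FPKM in spermatogonia, where the groups overlapped.

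**Figure D5:**
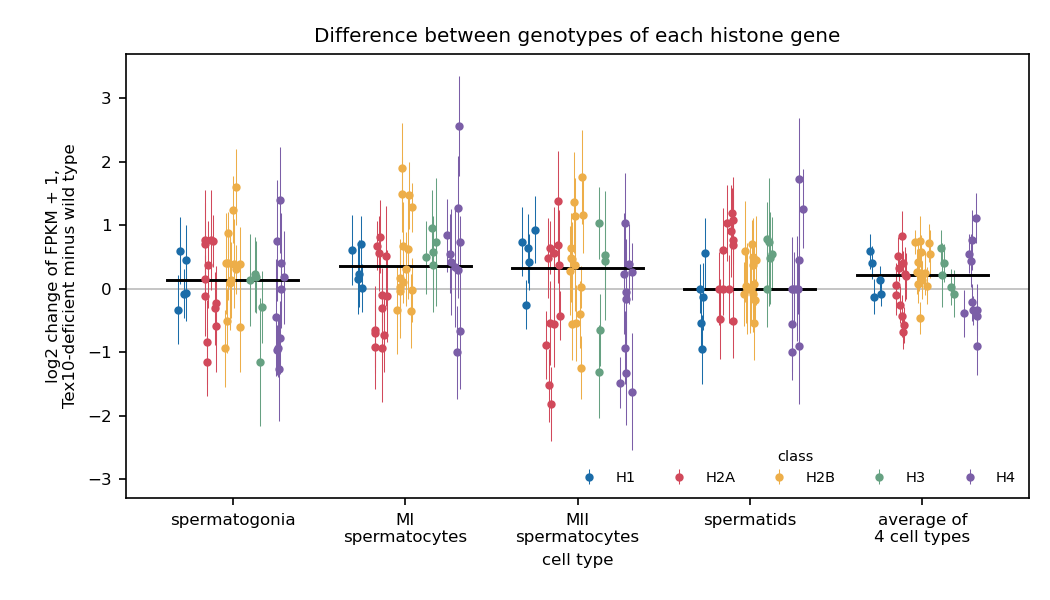
Log2 difference in FPKM + 1 between Tex10-deficient and wild-type libraries for each of the 46 members, by cell type and averaged, coloured by class, with bars of 1 SE and a black line at the median. Medians lie at 0.14, 0.36, 0.33 and 0 in the 4 cell types and 0.21 in the average, the first 3 turn negative when 1 library is left out, and 0 members pass the test.

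The course over cell types was similar in form in Tex10-deficient cells. Both MI libraries lay below both spermatogonia libraries for 37 members and above for 2 (38.5% and 37.1% of all genes), and both spermatid libraries lay below both MI libraries for 34 and above for 2 (34.1% and 36.4%). In the wild type the last counts were 27 and 2 (38.5% and 39.2%), and whether the genotypes differ in these counts was not tested. The highest mean was in spermatogonia for 36 members, in MI for 2, in MII for 7 and in spermatids for 1, Hist1h2bp. None of the DNA replication, 3′ end processing, chaperone or replacement histone genes was called between genotypes in any cell type or in the average. Among the testis-specific histones, Hist1h1t was higher in Tex10-deficient cells in the average, by 1.37 on the log2 scale (SE 0.18, adjusted p 0.00801). It was at 31.0 and 22.7 against 6.08 and 6.79 FPKM in spermatogonia and at 399 and 191 against 159 and 203 in MI spermatocytes. It was at 16.2 and 11.1 against 5.54 and 6.39 in MII spermatocytes and at 18.9 and 34.1 against 5.75 and 6.11 FPKM in spermatids, and the groups overlapped only in MI. Hist1h2aa was at 4185 and 5098 FPKM in Tex10-deficient spermatogonia, 1178 and 1021 in MI, 154 and 77.4 in MII and 92.3 and 232 in spermatids, and no difference passed the test (adjusted p 0.145 in spermatids and 0.676 in spermatogonia). Hist1h2ba was at 170 and 188, 164 and 36.4, 1.69 and 3.63, and 6.34 and 3.87 FPKM in those 4 cell types.

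Near-identical copies limit what can be said of single members. Of the 46 genes, 42 shared at least 1 window of 100 bases of annotated sequence with another gene, and in 15 of them at least 50% of all windows were shared. Counted over all other genes together, Hist1h2ai shared 88.4% of its windows, Hist1h2ao 92.7% and Hist1h4m 88.1%. The genes sharing most often with these members were Hist1h2ad, Hist1h2ap and Hist1h4n respectively. The 4 genes with no shared window were Hist1h1a, Hist1h1b, Hist1h4d and Hist2h2be. How the authors' counting treated reads that fit several genes, and whether it used strand, was not stated, so the values of the other genes may include reads of their copies. Annotated genes overlapped 16 members. Hist2h2bb shared 100% of its windows with other genes, most often with the antisense gene Gm20628. Hist3h2a shared 29.8%, most often with Trim17 on the same strand, and Hist1h1e 24.7%, most often with Hist1h2be. Levels of these genes are therefore uncertain.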

How the data were processed

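RNA of 16 libraries was analysed in 8 groups of 2, taken from the sample titles. The authors used Cufflinks 2.2.1, STAR 2.7.6a, FastQC 0.10.1, cutadapt and Trim Galore 0.6.3 and the build mm10, per the submitters' processing notes. The annotation, the handling of reads that fit several genes, strand and the filter behind the table were not stated. The smallest deposited value was 1, so the values were read as FPKM to which the authors had added 1, and 1 was subtracted. Read numbers are unknown, so no counting intervals are given, and a value of 0 may be a failed estimate. A gene with a letter in place of 1 of its values was left out.

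The 13099 genes that reached 1 FPKM in 2 or more libraries entered limma 3.58.1 (R 4.3.3) on the log2(FPKM + 1) scale, in a single fit of 8 groups with 8 residual degrees of freedom (eBayes with a trend). Calls were made at a Benjamini-Hochberg adjusted p under 0.05 over all genes. The script was tested on simulated data. Summed FPKM per library lay between 187713 and 533859, which is no measure of depth. Alternatives were pseudocounts of 0.1 and 5, no filter or one of 5 FPKM, quantile normalization, scaling by median of ratios, a replicate block, eBayes without a trend, leaving out MII libraries and leaving out each library.

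The members, gene lists and comparisons were chosen with earlier results of these data known. Named were members called between genotypes, up to 6 rises and 6 falls in each wild-type comparison, the 2 highest of each class, the 5 smallest p for the average genotype difference, and in other lists the 4 highest genes with any called between genotypes. Members named outside this rule (Hist1h2an, Hist1h4a, Hist1h2bl and Hist1h2ai in divergent pairs or spermatids, Hist2h2bb by position, Hist1h4m by copies, Hist1h4k and Hist1h2bf by calls under alternatives) were chosen after their values were seen. Coordinates, transcripts and stem-loops come from GENCODE M21 (GRCm38) and promoters from RefSeq (GRCm38.p6).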

Additional observations from a re-analysis of the deposited data

How the results depend on the processing

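Counts of members called kept within 1.5 times of the reported ones in each wild-type comparison under each alternative. Leaving out each library in turn gave 27 to 37 from spermatogonia to MI, 9 to 13 from MI to MII, 21 to 32 from MII to spermatids and 18 to 24 from MI to spermatids. Between genotypes the range was 0 to 0 in spermatogonia, spermatids and the F test, and 0 to 1 in MI, in MII and in the average. These single calls were Hist3h2ba in MI without wild-type MI replicate 1 (adjusted p 0.0499), Hist1h4k without wild-type MII replicate 1 (0.0168) and Hist1h2bb without Tex10-deficient MII replicate 2 (0.0447) in MII, and Hist1h2bf in the average without wild-type MII replicate 1 (0.0360). A pseudocount of 0.1 gave 1 call in MII, Hist1h4k (log2 -4.20, adjusted p 0.0375). The cause was not tested. Of 57 values of named members recomputed 1401 times, 1375 stayed on their side of the threshold, 25 lost and 1 gained a call, and 0 reversed.

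With quantile normalization the calls from MI to MII were 4 higher and 5 lower, in place of 7 and 4, and the median change of all genes moved to -0.25 from spermatogonia to MI, -0.21 from MI to MII and -0.17 from MI to spermatids, with the members' medians at -3.44, 0.15 and -1.45. A pseudocount of 0.1 left 5 higher and 4 lower. Without the 4 MII libraries, 37 members were called from spermatogonia to MI and 26 from MI to spermatids. Replicate numbers do not pair the samples by the labels. Over all genes, the correlation of deviations between same-numbered libraries of the 2 genotypes was 0.203, 0.00383, 0.308 and -0.127 in the 4 cell types. Over the members it was -0.0579, 0.3575, 0.0418 and -0.257. With a replicate block, 36, 12, 29 and 22 members were called in the 4 wild-type comparisons and 0 between genotypes. Low values limit spermatids, where 19 to 24 members were listed at 0.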
